A study of Mus musculus with 28 samples.

Results

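Collagens are the proteins of scar tissue, fibrils and basement membranes, and 44 genes of the mouse liver tables carried a collagen chain symbol (Col, a type number, a, a chain number) out of 47719 genes in all. These 44 chains were grouped by the kind of assembly they enter: 11 fibrillar chains, 6 basement membrane chains, 9 network chains, 9 chains of fibril-associated collagens with interrupted triple helices (FACIT) and 9 others. The liver mRNA profiles came from male C57BL/6 mice, about 6 weeks old at the start, in 7 groups of 4 animals. Lean controls were fed a low-fat diet (10% of kcal from fat) free of fructose and cholesterol. The other groups ate a diet that induces nonalcoholic steatohepatitis (NASH), with 40% of kcal from fat and, by weight, 22% fructose and 2% cholesterol. After 26 weeks on it they were dosed once a day by mouth for 4 weeks.

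Of these dosed groups, 1 received obeticholic acid (OCA) at 25 mg/kg and 1 served as its vehicle group. Another 3 received tropifexor (LJN452), read here in rising order as the low (0.1 mg/kg), mid (0.3 mg/kg) and high (0.9 mg/kg) dose groups, and 1 served as the tropifexor vehicle group. Both drugs are agonists of the farnesoid X receptor (FXR), the nuclear receptor for bile acids. OCA is a modified bile acid and tropifexor is not a bile acid. The vehicle groups are named as such in the sample titles, and the diet model has no genetic alteration.

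Every collagen molecule is a triple helix of chains. The chains are translated into the endoplasmic reticulum, hydroxylated on proline and lysine, folded with the help of chaperones, secreted, trimmed and, for the fibril formers, cross-linked by lysyl oxidases. In the liver, hepatic stellate cells that have turned into myofibroblasts, together with portal fibroblasts, are the main known source of the fibril collagens I and III laid down in fibrosis. Sinusoids normally have only a loose matrix, and collagens IV, XV and XVIII belong to basement membrane zones around vessels and ducts.

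The deposited data were 10 tables of pairwise comparisons made with Cuffdiff, each with 1 FPKM value (fragments per kilobase of transcript, scaled to the mapped fragments of the library) for each group, a log2 fold change, a p-value and a q-value, which is the p adjusted over the genes tested in that table. A chain is called higher or lower here where the authors' test was run and q was under 0.05. Between 15208 and 16144 genes were tested per table. The smallest p in every table was 5e-05, so many chains share the smallest q of their table. Values of single animals and the depth of single libraries were not analysed here, so the variation among mice is seen solely through the deposited statistics, and whether 2 groups overlap cannot be said. The standard error (SE) beside a log2 fold change was worked out from the deposited test statistic. It was divided by 1 factor per table, a median over genes, to bring it to the scale of the deposited p-values. For a single gene the SE and the deposited p can therefore disagree. Each table was scaled on its own: the same group differed between tables by a constant of up to 0.19 on the log2 scale, so levels are compared within a table. In bulk liver RNA, fewer cells of a type and less RNA per cell cannot be told apart.

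The authors tested 20 of the 44 chains in every table, and the same 20 chains reached an FPKM of 1 or more in some group. A further 7 chains (Col4a3, Col4a6, Col6a5, Col8a1, Col9a3, Col11a2 and Col24a1) were tested in some tables only. The remaining 17 chains were tested in none: Col2a1, Col4a4, Col6a4, Col6a6, Col7a1, Col8a2, Col9a1, Col9a2, Col10a1, Col11a1, Col17a1, Col19a1, Col22a1, Col23a1, Col25a1, Col26a1 and Col28a1. These are chains of cartilage, epithelial anchoring and other tissues for the most part, and the highest of them, the anchoring fibril chain Col7a1, reached an FPKM of 0.244. Of the 44 chains, 20 were called in at least 1 table, 18 of which were tested in all. Col16a1 and Col20a1, both FACIT chains, were tested in every table and called in none.

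In lean liver the most abundant chain by FPKM was Col18a1, whose C-terminal fragment is endostatin and which hepatocytes are known to make. It stood at an FPKM of 282 in the authors' deposited table that sets the OCA vehicle animals beside lean control. The next were the FACIT chain Col14a1 at 18.1 and the fibrillar chain Col3a1 at 15.0 in the same deposited table. Col5a3 followed at 7.65, Col4a1 at 6.35 and Col27a1 at 6.03, while the collagen I chains Col1a1 and Col1a2 stood at only 1.46 and 2.88 there. Lean liver thus had more Col14a1 and Col5a3 transcript per length than collagen I transcript. Col18a1 (chromosome 10, 77052178 to 77166548, minus strand, GRCm38) overlaps Slc19a1 on the opposite strand, and the deposited tables list a single locus over both. The library kit marks strand, but the sources used here do not say whether the counting used it, so the Col18a1 level is uncertain.

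The promoters of 4 chains are printed: Col1a2 and Col3a1 of the fibrils, and Col4a1 and Col4a2 of the basement membrane. No promoter window was found for Col1a1, the helix partner of Col1a2. Each window runs from 250 bases before to 50 bases after the RefSeq start, on the strand of the gene, GRCm38.p6. Col1a2 is at chr6:4505368-4505667 (plus strand), Col3a1 at chr1:45311288-45311587 (plus strand), Col4a1 at chr8:11312777-11313076 (minus strand) and Col4a2 at chr8:11312555-11312854 (plus strand). Capitals mark exact matches, on either strand, to 3 common promoter motifs: TATAAA, the core of the classical box near the start, then CCAAT, and lastly the GC-rich motif GGGCGG. On the other strand a match to the second reads ATTGG and a match to the last reads CCGCCC. None of the matches shown overlap.
Col1a2: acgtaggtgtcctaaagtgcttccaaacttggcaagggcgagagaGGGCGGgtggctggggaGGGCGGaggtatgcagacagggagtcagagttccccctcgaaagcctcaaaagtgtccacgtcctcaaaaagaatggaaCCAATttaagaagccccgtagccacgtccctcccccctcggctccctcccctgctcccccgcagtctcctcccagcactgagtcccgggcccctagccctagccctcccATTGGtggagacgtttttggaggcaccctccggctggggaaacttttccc
Col3a1: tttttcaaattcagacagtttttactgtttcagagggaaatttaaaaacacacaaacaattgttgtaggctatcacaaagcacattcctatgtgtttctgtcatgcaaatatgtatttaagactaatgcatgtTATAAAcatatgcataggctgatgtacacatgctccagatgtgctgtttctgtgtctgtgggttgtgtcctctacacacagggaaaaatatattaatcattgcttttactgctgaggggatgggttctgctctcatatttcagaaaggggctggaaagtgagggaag
Col4a1: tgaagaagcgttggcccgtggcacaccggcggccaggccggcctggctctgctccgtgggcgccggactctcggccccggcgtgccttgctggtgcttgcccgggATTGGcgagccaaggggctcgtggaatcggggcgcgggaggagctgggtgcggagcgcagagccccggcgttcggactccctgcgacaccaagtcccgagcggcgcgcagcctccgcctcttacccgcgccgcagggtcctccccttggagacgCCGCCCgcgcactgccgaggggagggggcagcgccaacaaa
Col4a2: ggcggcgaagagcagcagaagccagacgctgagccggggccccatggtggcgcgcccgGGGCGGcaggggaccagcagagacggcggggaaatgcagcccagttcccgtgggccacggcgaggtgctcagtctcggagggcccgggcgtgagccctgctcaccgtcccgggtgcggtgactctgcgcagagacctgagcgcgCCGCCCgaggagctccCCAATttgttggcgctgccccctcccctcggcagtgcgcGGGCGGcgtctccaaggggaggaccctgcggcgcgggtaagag

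The Col1a2 window held 2 CCAAT and 2 GGGCGG matches in sequence of 61% GC, while the Col3a1 window, of 37.7% GC, held 1 TATAAA match and neither of the others. The Col4a1 and Col4a2 windows, of 74% and 73.7% GC, each held 1 CCAAT match, with 1 and 3 GGGCGG matches. Their windows share 78 bases, since Col4a1 and Col4a2 lie head to head on chromosome 8 and overlap by 22 bases in the annotation. The GGGCGG match of Col4a1 lies in these shared bases, so the same site is also 1 of the 3 in the Col4a2 window. RefSeq promoter windows were matched for 35 of the 44 chains. Among these 35, TATAAA was found in 5, CCAAT in 12 and GGGCGG in 22, against 13.6%, 37.4% and 35.7% of 32851 mouse promoter windows of the same length. The exact inverted repeat of AGGTCA with 1 base between the repeats, a known binding element of FXR with its partner RXR, was in 0 of the 35 windows and in 0.00913% of all windows. These matches describe the letters of the windows and nothing about binding.

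Most of the tested collagen chains were higher in the vehicle groups on the NASH diet than in lean control. In the OCA vehicle group against lean control, 15 of 23 tested chains rose, where 11.4% of all tested genes rose, and 2 fell, where 6.56% of all tested genes fell. In the tropifexor vehicle group against the same lean animals, 15 of 22 tested chains rose (background 12.1%) and 2 fell (background 8.53%). The median log2 fold change over tested chains was 1.03 and 1.16 in these 2 comparisons, against 0.02 and 0.01 over all tested genes. The 2 comparisons share the lean control group, so they are given side by side and neither is independent of the other. No dosing and no feeding time is listed for the lean controls. Diet, vehicle dosing and age at the end therefore cannot be told apart, and the diet effect named below is this whole contrast.

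Among the fibril formers, collagen I rose most. Col1a1 (chromosome 11, 94936224 to 94953042, plus strand, GRCm38) went from an FPKM of 1.46 in lean liver to 9.53 in the OCA vehicle group, a log2 fold change of 2.71 (SE 0.19, q = 0.000588) in the authors' deposited table. In the tropifexor vehicle group it went from 1.47 to 13.1, a log2 fold change of 3.16 (SE 0.22, q = 0.000507) in the authors' deposited table. Both vehicle groups were thus well above lean control, 6.53-fold and 8.95-fold in those tables. Its helix partner Col1a2 rose from 2.88 to 13.0 (log2 2.18, SE 0.15) and from 2.89 to 16.6 (log2 2.52, SE 0.16), per the authors' deposited tables. Collagen I helices take a pair of Col1a1 chains for each Col1a2 chain, and the ratio of the deposited Col1a1 to Col1a2 FPKM was 0.507 in lean liver, 0.733 under OCA vehicle and 0.789 under tropifexor vehicle.

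Col3a1, the chain of collagen III that lies within collagen I fibrils and is abundant in early scar, rose from an FPKM of 15.0 to 60.2 (log2 2.00, SE 0.26) in the OCA vehicle table deposited by the authors. In the authors' deposited table for the tropifexor vehicle group it rose from 15.1 to 82.3 (log2 2.45, SE 0.27), and it was the second chain after Col18a1 in both vehicle groups. Collagen V nucleates fibrils, and its chains did not move as one. Col5a2 rose by 1.96 and 2.22 on the log2 scale and Col5a1 by 0.76 and 0.96 in the authors' deposited tables of the 2 vehicle groups. Col5a3, the last collagen V chain, was not called (log2 -0.27, q = 0.138, and log2 -0.15, q = 0.519, in the same deposited tables). Col5a3 was 14.7 times Col5a2 in lean liver by deposited FPKM, 3.16 times under OCA vehicle and 2.87 times under tropifexor vehicle. Col27a1, a fibrillar chain known from cartilage, was not called either, at 0.38 and 0.27 (q = 0.112 and 0.379, the authors' deposited tables). Col11a2 and Col24a1, the low fibrillar chains tested in some tables, were called in none.

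All 3 tested basement membrane chains rose in both vehicle groups, by less than collagen I. This class holds collagen IV only, and Col15a1 and Col18a1 are given with the other collagens. Col4a1 and Col4a2 make up the common collagen IV of vessels. In the authors' deposited tables Col4a1 rose from 6.35 to 9.92 (log2 0.64, SE 0.23, q = 0.00781) and from 6.38 to 10.9 (log2 0.77, SE 0.23). Col4a2 rose by 0.59 (q = 0.023) and 0.73 (q = 0.00289) on the log2 scale in the authors' deposited tables. The ratio of Col4a1 to Col4a2 was close in the 3 groups, at 1.52, 1.57 and 1.56 in lean control, OCA vehicle and tropifexor vehicle. Col4a5, a chain of the collagen IV forms found in specialised basement membranes, rose from 0.286 to 0.527 and from 0.287 to 0.605 in the authors' deposited tables.

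Of the network chains, the 3 main collagen VI chains, which form beaded microfibrils around cells, all rose. Col6a1 rose by 1.28 and 1.63, Col6a2 by 1.36 and 1.73 and Col6a3 by 1.78 and 1.94 on the log2 scale in the authors' deposited tables of the OCA vehicle and tropifexor vehicle groups. Col8a1, a chain of the short network collagen VIII of vessel walls, was low, at 0.145 in lean liver, and rose to 0.351 and 0.411 in the authors' deposited tables. It was not tested in mid- or high-dose liver against lean control. Its calls, included in the counts of chains, therefore depend on the groups where it is higher. Among the FACIT chains, which decorate fibril surfaces, Col12a1 rose from 0.535 to 1.72 (log2 1.68, SE 0.33) and from 0.538 to 1.93 (log2 1.84, SE 0.32) in the authors' deposited tables. Col14a1, of which lean liver already held much, rose from 18.1 to 28.0 and from 18.2 to 28.4, or 0.63 and 0.64 on the log2 scale in the authors' deposited tables. Neither Col16a1 (log2 0.67, q = 0.254, and 0.97, q = 0.0596, the authors' deposited tables) nor Col20a1 (log2 0.23 and -0.30) was called.

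The other collagens held the 2 chains that fell. Col18a1 fell from 282 to 170 and from 283 to 170 (log2 -0.73, q = 0.00781, and -0.74, q = 0.000507) in the authors' deposited tables. Col13a1, a transmembrane collagen at cell contacts, fell from 1.37 to 0.848 (log2 -0.69, q = 0.00206) and from 1.37 to 0.620 (log2 -1.15, q = 0.000507) in the authors' deposited tables. Col15a1, the relative of Col18a1 that bridges basement membranes to fibrils, rose by 1.03 (q = 0.0309) and 1.24 (q = 0.00802). The diet effect was not called different between the 2 vehicle groups for any of the 21 chains tested for that difference (background 0.0985%, or 0.381% with the smaller SE defined further on), with 0 chains at an unadjusted p under 0.05. For Col1a1 the difference was 0.46, with a 95% interval from -0.71 to 1.62.

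**Figure D1:**
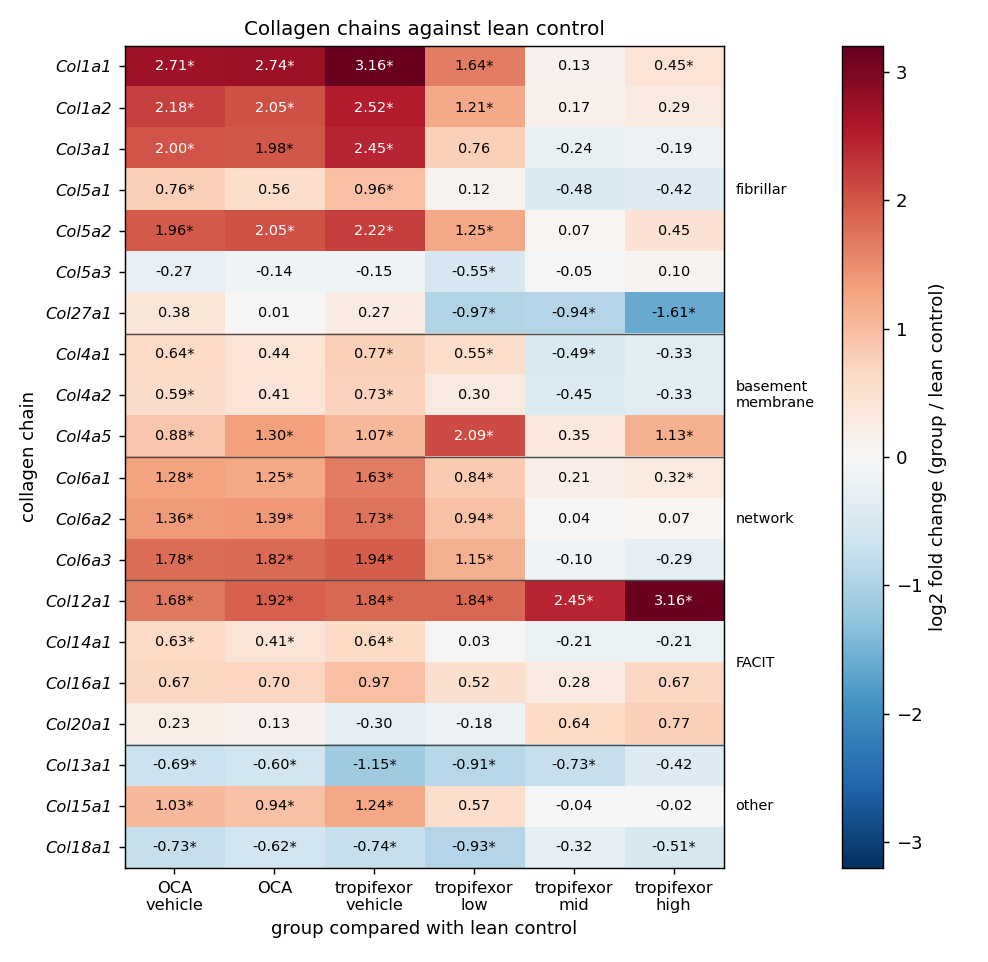
Log2 fold change against lean control of the 20 chains tested in every table, as deposited, with 1 column for each of the 6 other groups and asterisks where the deposited q was under 0.05. Each column comes from a table of its own, red is higher and blue lower than lean control, and lines part the 5 classes. The OCA and vehicle columns are red for collagens I, III and VI, the mid and high columns run from -0.29 to 0.45 for these chains with Col1a1 and Col6a1 called higher at the high dose, and Col12a1 runs from 1.68 to 3.16 in all 6 columns.

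OCA at 25 mg/kg left no collagen chain called against its vehicle. Of 24 tested chains, 0 rose and 0 fell in the authors' deposited Cuffdiff table, where 4.04% of all tested genes were called in either direction, and 2 chains had an unadjusted p under 0.05. Col1a1 stood at 10.2 under vehicle and 10.3 under OCA (log2 0.02, SE 0.21, q = 0.999) in the authors' deposited table. Col3a1 stood at 64.2 and 63.0, Col1a2 at 13.9 and 12.6, and Col6a3 at 9.13 and 9.32 there, all with q of 0.981 or more. The smallest q was that of Col27a1, at 8.39 under vehicle and 6.43 under OCA (log2 -0.38, SE 0.16, q = 0.285), with Col4a5 next at 0.561 and 0.748 (log2 0.41, q = 0.383) in the authors' deposited table. The median log2 fold change over the tested chains was 0.02. These q-values do not show that OCA left the chains alone: the SE of Col3a1 was 0.27 on the log2 scale.

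All 3 doses of tropifexor were compared with the same vehicle group. At the low dose, 8 of 25 tested chains fell, where 5.2% of all tested genes fell, and 2 rose, where 6.03% of all tested genes rose, 1 of them a chain (Col4a6) tested only in tables with this group. At the mid dose, 15 of 22 fell (background 15.7%) and 1 rose (background 11.8%). At the high dose, 14 of 23 fell (background 15.5%) and 2 rose (background 9.93%). The median log2 fold change of tested chains was -0.45, -1.23 and -1.08 at the low, mid and high dose, against -0.01 at the mid and -0.05 at the high dose over all tested genes, and a value under 0.01 in size at the low dose.

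Of all chains, Col1a1 and Col3a1 fell most at each dose. Col1a1 fell from 15.0 under vehicle to 5.23 at the low dose (log2 -1.52, SE 0.31, q = 0.000968) in the authors' deposited table. It fell from 13.1 to 1.60 at the mid dose (log2 -3.03, SE 0.18, q = 0.000361) and from 13.6 to 2.09 at the high dose (log2 -2.70, SE 0.17, q = 0.000396) in the authors' deposited tables. The mid-dose group was 8.16-fold below vehicle, the high-dose group 6.51-fold and the low-dose group 2.86-fold. Col1a2 fell by 1.31, 2.35 and 2.22 on the log2 scale at the low, mid and high dose, and Col3a1 fell by 1.69, 2.68 and 2.62, in the authors' deposited tables. Col3a1 went from 93.7 to 29.1, from 82.0 to 12.8 and from 85.3 to 13.9 at the 3 rising doses in those tables.

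Within collagen V, Col5a2 fell at each dose, by 0.96, 2.14 and 1.75 on the log2 scale in the authors' deposited tables. Col5a1 was not called at the low dose (log2 -0.84, q = 0.0642) and fell by 1.43 at the mid and 1.36 at the high dose. Col5a3 was called at no dose, at -0.40, 0.10 and 0.26 in the authors' deposited tables (q = 0.133, 0.665 and 0.126). Col27a1, not called on the diet, fell at every dose: from 8.38 to 3.52 (log2 -1.25), from 7.31 to 3.15 (log2 -1.22) and from 7.62 to 2.08 (log2 -1.87) in the authors' deposited tables. It was the fibrillar chain whose call under tropifexor had no diet call of opposite direction.

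Among the basement membrane chains Col4a5 was higher at the low dose, and the chains called at the mid and high dose were lower. At the low dose Col4a1 and Col4a2 were not called, at -0.21 (q = 0.726) and -0.44 (q = 0.469), while Col4a5 rose from 0.686 to 1.39 (log2 1.01, SE 0.30, q = 0.0113) in the authors' deposited table. Col4a6, encoded head to head with Col4a5 on the X chromosome, went from 0.0925 to 0.310 (log2 1.75, SE 0.45, q = 0.000968) in the authors' deposited table. It was tested only in the 2 tables that hold the low-dose group, where it is highest, so its call depends on that group and says nothing about the other doses. At the mid dose all 3 tested chains fell in the authors' deposited table: Col4a1 from 10.8 to 4.56 (log2 -1.25), Col4a2 from 6.94 to 3.08 (log2 -1.17) and Col4a5 from 0.601 to 0.365 (log2 -0.72, q = 0.0107). At the high dose Col4a1 and Col4a2 fell by 1.08 and 1.04 on the log2 scale, and Col4a5 was not called, at 0.07 (q = 0.895) in the authors' deposited table. The Col4a1 to Col4a2 ratio was 1.82 in the low-dose group, 1.48 at the mid and 1.51 at the high dose.

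Collagen VI followed the fibril chains. Col6a1 fell by 0.79, 1.41 and 1.29 and Col6a2 by 0.79, 1.68 and 1.65 on the log2 scale at the low, mid and high dose in the authors' deposited tables. Col6a3 was not called at the low dose (log2 -0.80, SE 0.42, q = 0.24) and fell from 9.59 to 2.33 at the mid and from 9.98 to 2.14 at the high dose in the authors' deposited tables. Col8a1 was not called at the low dose (q = 0.296) and fell by 1.25 and 1.34 at the mid and high dose. These falls were tested only beside the vehicle group, where Col8a1 is higher, since it was not tested against lean control at these doses. Col6a5, a low collagen VI chain, was tested at every dose and not called.

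The FACIT chains split. Col14a1 fell at each dose, by 0.61 (q = 0.0285), 0.85 and 0.84 on the log2 scale in the authors' deposited tables. Col12a1, one of the chains that rose on the diet, was called lower at no dose. In the authors' deposited tables it stood at 2.19 under vehicle beside the low dose (log2 0.00, q = 0.998), then at 1.92 and 2.93 at the mid dose (log2 0.61, q = 0.0538). At the high dose it rose from 2.00 to 5.02 (log2 1.33, SE 0.26, q = 0.000396) in the authors' deposited table. Col12a1 lies on chromosome 9, from 79598991 to 79718831 on the minus strand (GRCm38). Col16a1 and Col20a1 were called at no dose.

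Of the other collagens, Col15a1 fell by 1.27 at the mid dose (q = 0.00184) and 1.24 at the high dose (q = 0.0108) and was not called at the low dose (q = 0.119). Col18a1 rose at the mid dose, from 169 to 226 (log2 0.42, SE 0.16, q = 0.0402) in the authors' deposited table. At the low and high dose it was not called, at -0.19 (q = 0.79) and 0.25 (q = 0.311). Col13a1 rose at the high dose, from 0.642 to 1.08 (log2 0.75, SE 0.22, q = 0.00426), and was not called at the low (log2 0.24) or mid dose (log2 0.42, q = 0.152) in the authors' deposited tables. Col18a1 and Col13a1 are the 2 chains that had fallen on the diet.

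**Figure D2:**
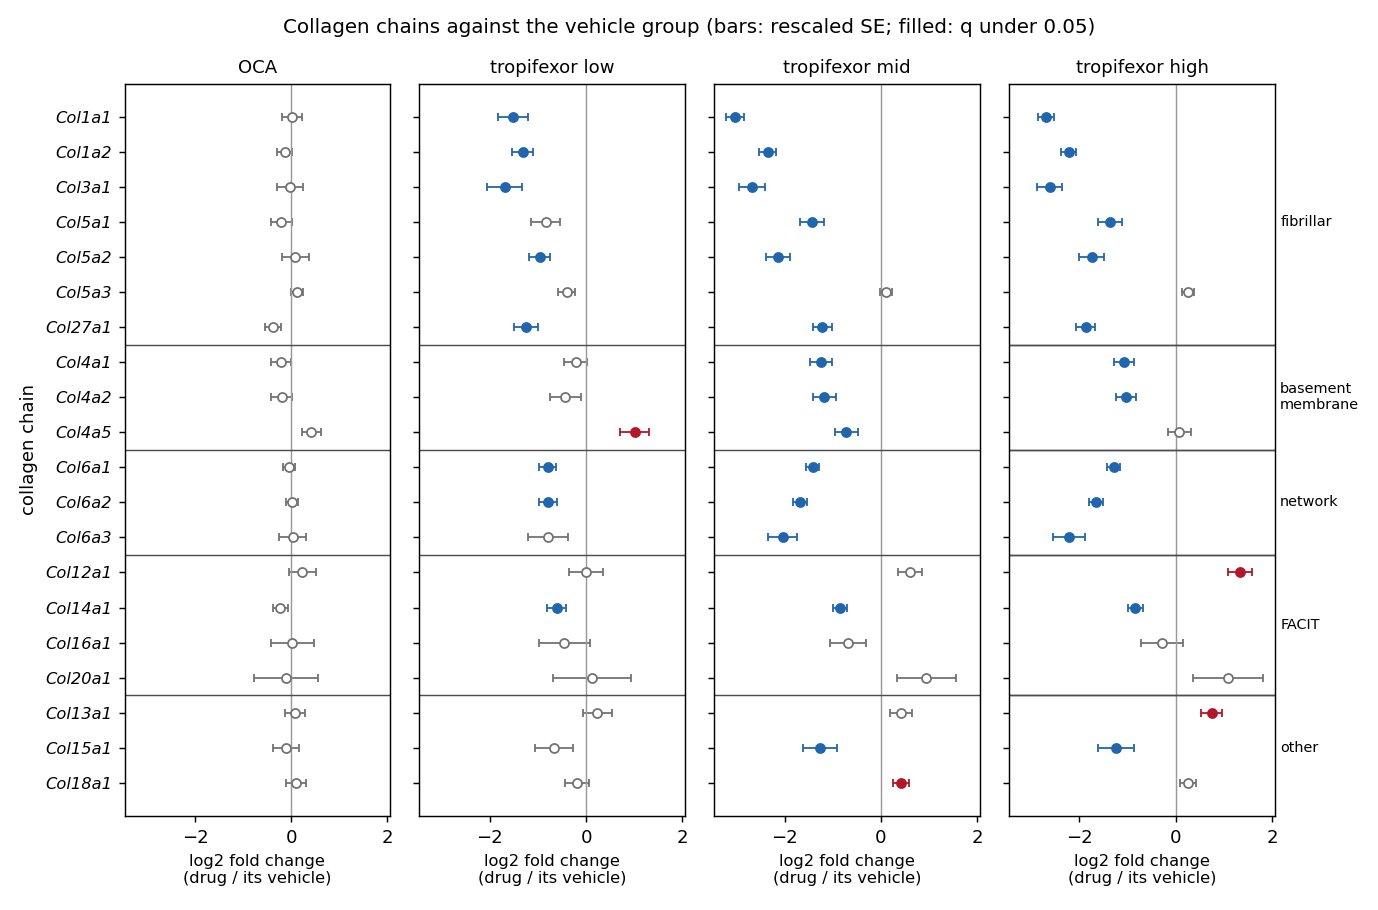
Log2 fold change against the matching vehicle group (x axis) of the 20 chains tested in every table (y axis), 1 panel for each of OCA and the 3 tropifexor doses. Points are deposited values, bars are 1 SE to each side, filled points had a deposited q under 0.05, blue is lower and red higher, and the 3 tropifexor panels share their vehicle group. Col1a1 sits at 0.02 in the OCA panel and at -1.52, -3.03 and -2.70 in the low, mid and high panels, and Col12a1 is the filled red point among the FACIT chains at the high dose.

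Whether the doses differed was tested on the difference of their log2 fold changes. The SE for this was each deposited fold change divided by its deposited test statistic, and the variances were added, which is conservative for comparisons that share a vehicle group. With it, 0 of 22 chains differed between any pair of doses, where 0.278% of all genes did for high against low, 0.319% for high against mid and 0.423% for mid against low. At an unadjusted p under 0.05 these 3 tests had 0, 0 and 2 chains. The deposited p-values are smaller than that statistic gives for a normal test, and with the SE brought into line with them (about 2.03 to 2.05 times smaller) more chains were called. For high against low dose 5 of 22 then differed (background 5.63%): Col1a1, Col1a2 and Col6a2 were lower and Col5a3 and Col12a1 higher at the high dose. For mid against low 6 of 22 differed (background 10.3%), with Col1a1, Col1a2, Col4a1, Col4a5, Col5a2 and Col6a2 all lower at the mid dose. For high against mid 0 of 22 differed with either SE (background 2.32% with the smaller SE). The Col1a1 difference was -1.19 for high minus low (95% interval -2.58 to 0.21, or -1.87 to -0.50 with the smaller SE) and 0.33 for high minus mid (95% interval -0.66 to 1.31). The Col12a1 difference for high minus low was 1.33, with an interval from -0.40 to 3.06, or from 0.48 to 2.17 with the smaller SE.

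The treated groups were also compared with lean control, a comparison that shares the lean animals with the diet comparisons. Under OCA, 14 of 22 tested chains were called, where 16.8% of all tested genes were: 12 higher and 2 lower. Col1a1 was 1.44 in lean and 9.60 in OCA-treated liver (log2 2.74, q = 0.000624) in the authors' deposited table. At the low tropifexor dose 15 of 24 were called (background 23.8%), 11 higher and 4 lower. Col1a1 was higher than lean by 1.64 on the log2 scale and Col4a5 by 2.09, while Col3a1 was not called at 0.76 (q = 0.0616) in the authors' deposited table. Col4a6 was higher by 1.88 there. The 4 lower chains were Col18a1 (log2 -0.93), Col27a1 (log2 -0.97), Col13a1 (log2 -0.91) and Col5a3 (log2 -0.55, q = 0.00566).

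At the mid dose 4 of 20 tested chains were called against lean control, below the 23.1% of all tested genes: Col12a1 was higher, and Col4a1, Col13a1 and Col27a1 were lower. At the high dose 6 of 20 were called (background 27.3%), a share near that of all genes. Col1a1, Col4a5, Col6a1 and Col12a1 were higher and Col18a1 and Col27a1 lower. Col1a1 stood at 1.36 in lean and 1.48 in mid-dose liver (log2 0.13, SE 0.22, q = 0.678), and at 1.41 and 1.93 for the high dose (log2 0.45, SE 0.20, q = 0.0211), in the authors' deposited tables. Col3a1 was not called at either dose (log2 -0.24, q = 0.582, and -0.19, q = 0.678). The median over tested chains was -0.04 at the mid and 0.02 at the high dose, against 1.09 under OCA and 0.80 at the low dose.

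At the 2 higher doses Col12a1 was above lean control, as it was in the vehicle groups, and Col27a1, not called on the diet, was below it. Col12a1 rose above lean from 0.498 to 2.71 (log2 2.45, SE 0.31) at the mid dose and from 0.518 to 4.62 (log2 3.16, SE 0.31) at the high dose in the authors' deposited tables. It was higher than lean by 1.84 at the low dose and by 1.92 under OCA. Col27a1 was below lean by 0.94 on the log2 scale at the mid dose, from 5.61 to 2.92, and fell by 1.61 at the high dose, from 5.84 to 1.91, in the authors' deposited tables. Under OCA Col27a1 was not called against lean (log2 0.01, q = 0.993).

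The make-up of the collagen transcript pool followed from these changes. Col18a1 made up 77.9% of the summed collagen FPKM in lean liver, 48.4% under OCA vehicle and 43.6% under tropifexor vehicle. In the treated groups it made up 51.6% under OCA and 57.7%, 75.7% and 72.0% at the low, mid and high tropifexor dose. Since the Col18a1 level is uncertain, the sum was also taken without it. That sum was 79.9 in lean and 181 in OCA vehicle liver in 1 deposited table. Against the tropifexor vehicle it went from 249.6 to 124 at the low dose, from 218 to 72.6 at the mid dose and from 227 to 81.2 at the high dose in the authors' deposited tables, and against the OCA vehicle from 193 to 183 under OCA.

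Without Col18a1, Col14a1 was the first chain of lean liver with 22.7% of the sum, ahead of Col3a1 with 18.8%. In the vehicle groups Col3a1 led with 33.3% (OCA vehicle) and 37.6% (tropifexor vehicle), and Col14a1 held 15.5% and 13.0%. Under OCA Col3a1 held 34.5%. At the mid and high tropifexor dose Col14a1 was again first, with 21.6% and 20.3% against 17.6% and 17.1% for Col3a1. The low-dose group kept Col3a1 first, with 23.4% against 17.1%. The Col1a1 to Col1a2 ratio was 0.818 under OCA, and 0.685, 0.494 and 0.567 at the low, mid and high dose, beside 0.507 in lean liver. These shares rest on 1 value per group and carry no error.

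**Figure D3:**
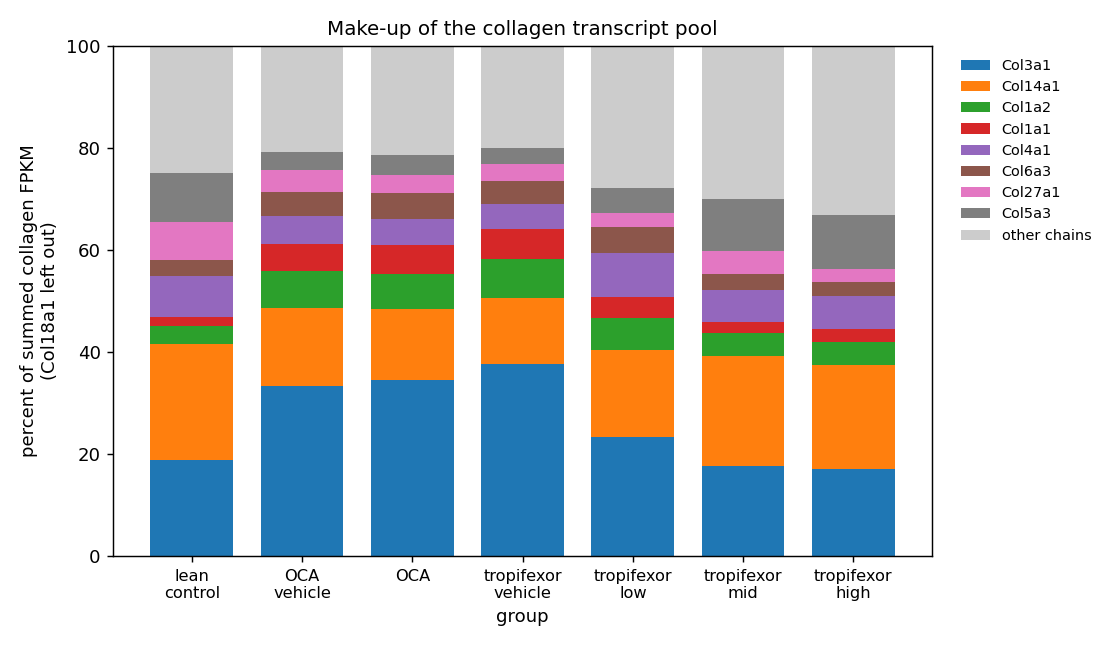
Share of each of 8 chains, and of all other chains together, in the summed deposited collagen FPKM without Col18a1 (y axis, percent), for the 7 groups (x axis). Col3a1 (blue, lowest block) takes 18.8% in lean control, 33.3% and 37.6% in the vehicle groups, and 17.6% and 17.1% at the mid and high tropifexor dose.

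The effects of the 2 drugs, each against its own vehicle, were compared by the same difference test; their doses differ, and the vehicle groups are separate animals. With the larger SE and a q adjusted by Benjamini-Hochberg over all genes tested in both tables, 5 of 23 chains differed between high-dose tropifexor and OCA (background 1.69%), and 5 of 22 between mid-dose tropifexor and OCA (background 1.48%). In both comparisons the 5 chains were Col1a1, Col1a2, Col3a1, Col6a1 and Col6a2, and all were lower under tropifexor. With fold changes centred on the median of all tested genes the high-dose count was 4, without Col6a1 (q = 0.0594). For Col1a1 the difference was -2.73 for the high dose (95% interval -3.80 to -1.65, q = 0.000105) and -3.05 for the mid dose (95% interval -4.16 to -1.94, q = 2.38e-05). For Col3a1 it was -2.59 (95% interval -4.08 to -1.11, q = 0.0399) and -2.65 (95% interval -4.18 to -1.12, q = 0.046).

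With the smaller SE, 14 of 23 chains differed at the high dose (background 11.4%), 13 lower and 1, Col12a1, higher under tropifexor. At the mid dose 14 of 22 differed (background 12%), all 14 lower. At the low dose 0 of 22 differed from OCA with the larger SE (background 0.418%), 2 of them at an unadjusted p under 0.05, and 5 of 22 did with the smaller one (background 5.24%): Col1a1, Col1a2, Col3a1, Col6a1 and Col6a2, all lower. The low-dose difference in Col1a1 was -1.54, with a 95% interval from -3.03 to -0.05 before adjustment. For Col5a3 the high dose and OCA differed by 0.14, with an interval from -0.57 to 0.84, and for Col18a1 by 0.14, from -0.94 to 1.22.

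**Figure D4:**
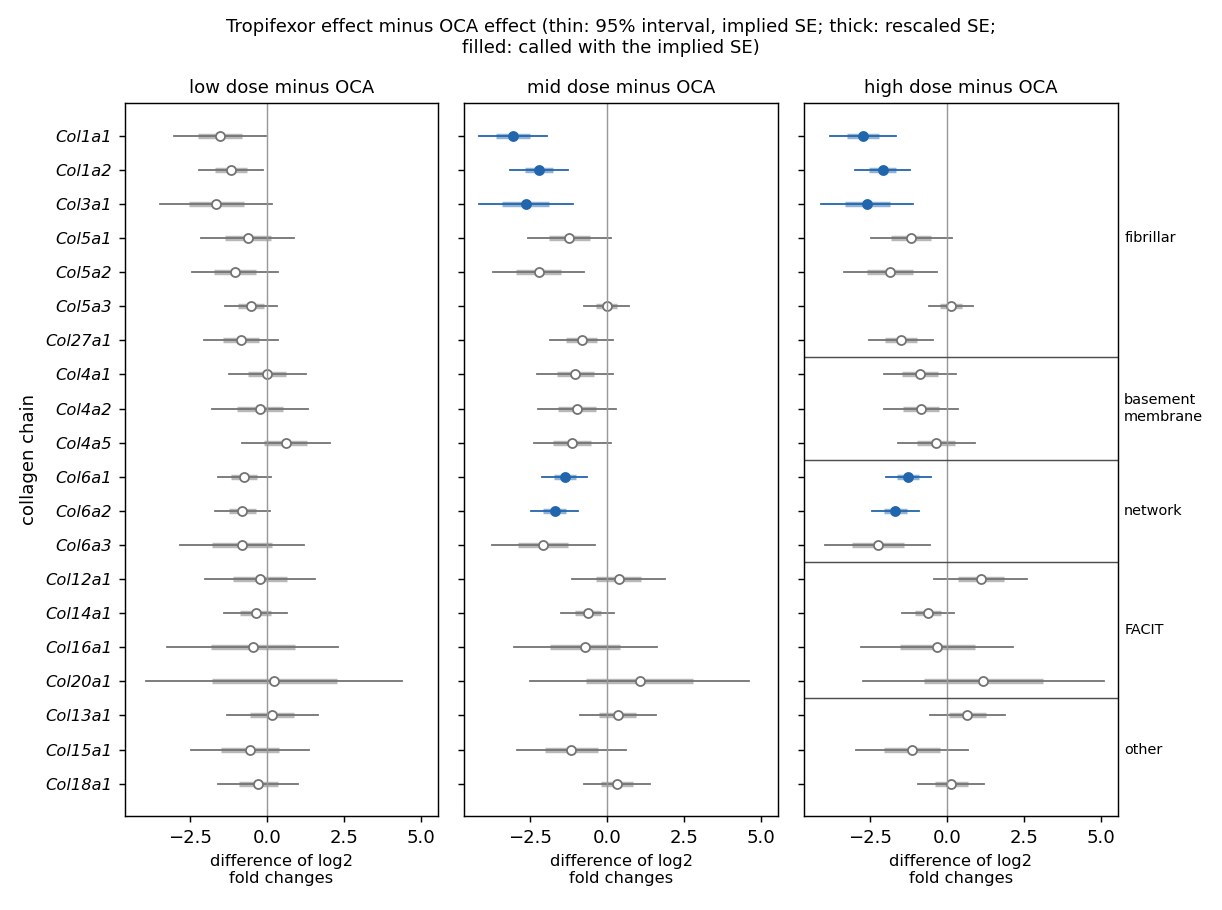
Difference between the log2 fold change of tropifexor and that of OCA, each against its own vehicle (x axis), for the 20 chains tested in every table (y axis), with 1 panel per dose. Thin bars are 95% intervals from the larger SE, thick bars those from the smaller SE, and filled points were called with the larger SE after adjustment over all genes. The filled points are Col1a1, Col1a2, Col3a1, Col6a1 and Col6a2, from -1.25 to -3.05, in the mid and high panels.

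The genes that fold, trim and bind collagen are given beside the chains by counts. The shares of all tested genes to read them against are, for higher and lower, 11.4% and 6.56% with OCA vehicle, 12.1% and 8.53% with tropifexor vehicle, and 6.03% and 5.2%, 11.8% and 15.7%, and 9.93% and 15.5% at the low, mid and high dose. Under OCA the share was 4.04% in either direction. Of 18 tested genes for collagen folding and hydroxylation, 10 rose in each vehicle group, with 0 and 2 lower; 0 were called under OCA, and 3, 12 and 11 fell at the low, mid and high tropifexor dose with 0 higher. Serpinh1, the collagen chaperone HSP47, rose from 5.10 to 14.6 in the OCA vehicle group (log2 1.52) and fell from 17.4 to 5.90 at the mid dose (log2 -1.56) in the authors' deposited tables. Plod2, a lysyl hydroxylase whose product makes stable cross-links, rose by 1.26 and 1.40 on the log2 scale in the 2 vehicle groups and fell by 1.65 at the mid dose. Sparc, a collagen-binding matrix protein, fell by 0.97 at the low and 1.55 at the high dose in the authors' deposited tables.

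Of 11 tested genes for procollagen trimming and cross-linking, 6 rose and 1 fell in each vehicle group, 0 were called under OCA, and 3, 7 and 8 fell at the 3 rising doses. Lox, the lysyl oxidase that starts fibril cross-linking, rose from 0.0765 to 0.624 (log2 3.03) in the OCA vehicle group in the authors' deposited table. It fell at each tropifexor dose, by 0.98, 2.95 and 2.47 on the log2 scale, and its relative Loxl2 fell by 1.05, 1.89 and 2.00 in the authors' deposited tables. Of 12 tested proteoglycans and fibril organisers, 9 rose in each vehicle group, with 0 and 1 lower. Under OCA 1 rose, Lum, which encodes the fibril-spacing proteoglycan lumican (14.9 to 20.5, log2 0.46, q = 0.0103, the authors' deposited table), and 0 fell. Under tropifexor 1 fell and 1 rose at the low dose, 7 fell at the mid dose, and 6 fell and 1 rose at the high dose. Lum fell at the mid dose, from 18.1 to 6.60 (log2 -1.46, the authors' deposited table).

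Of 8 tested collagen receptors and uptake genes, 3 rose in each vehicle group (Mrc2, Lair1 and Ddr1), 0 were called under OCA, 1 rose at the low dose and 5 fell at the mid and the high dose. Ddr1, a collagen-sensing kinase of epithelial cells, rose from 2.17 to 3.98 at the low dose and fell from 1.90 to 0.637 at the mid dose in the authors' deposited tables. Of 15 basement membrane partners, the diet raised 3 and lowered 1 with OCA vehicle, and raised 4 and lowered 0 with tropifexor vehicle. OCA lowered 1 and raised 0, near the 4.04% of all genes. At the low dose 2 rose and 0 fell, at the mid dose 9 fell and 1 rose, and at the high dose 3 fell and 1 rose. Nid1, which links laminin to collagen IV, rose by 0.66 at the low dose (10.9 to 17.3) and fell by 1.09 at the mid dose (9.58 to 4.49), on the log2 scale in the authors' deposited tables.

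Of 13 tested regulators of collagen transcription, ligands and receptors of the TGF-beta and PDGF pathways among them, the diet raised 8 and lowered 1 with OCA vehicle, and raised 9 and lowered 0 with tropifexor vehicle. OCA left 0 called, the low dose raised 1 and lowered 0, and the mid and high dose lowered 6 and 5 and raised 0. Among the ligands, Tgfb3 rose by 1.30 and 1.45 in the vehicle groups and fell by 1.49 at the mid dose. Tgfb2 rose at the low dose (0.714 to 1.77, log2 1.31, q = 0.00665) and fell at the high dose (0.650 to 0.269, log2 -1.27, q = 0.0014) in the authors' deposited tables. Among the receptors, Pdgfra fell by 1.26 at the mid dose and Pdgfrb by 0.86 at the high dose.

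Markers of the cells that make collagen moved with some of these results, and their counts stand against the same shares, 15.7% and 15.5% of all genes for lower at the mid and high dose among them. The lists overlap: Pdgfrb is also counted among the regulators of collagen transcription. Fbln2 is counted among both the fibril organisers and the portal fibroblast markers. Of 12 stellate cell and myofibroblast markers, 3 and 4 rose in the vehicle groups with 0 lower, 0 were called under OCA, and 4, 9 and 9 fell at the low, mid and high dose, with 0, 1 and 1 higher. Their summed FPKM ranged over the tables from 60.2 to 68.1 in lean liver, 83.2 to 88.7 in OCA vehicle and 87.9 to 100.6 in tropifexor vehicle. It ranged from 67.6 to 72.6 under OCA, 59.9 to 65.2 at the low, 39.8 to 43.0 at the mid and 41.2 to 44.9 at the high dose. At the mid and high dose that sum was below the lean range, while Col1a2 and Col3a1 were not called against lean control at these doses. Col1a1 was not called against lean control at the mid dose and was called higher at the high dose. Acta2, the smooth muscle actin of myofibroblasts, fell by 0.86 on the log2 scale at the low dose and from 4.55 to 1.66 at the high dose in the authors' deposited tables. The part of these markers in the collagen results was not tested.

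Of the portal fibroblast and mesothelial markers, 5 of 9 tested rose in each vehicle group and 0 were called under OCA. At the low dose 1 of 10 rose and 1 fell, at the mid dose 5 of 9 fell, and at the high dose 4 of 10 fell and 1 rose. Their sum was 32.1 to 36.2 in lean, 47.2 to 50.3 in OCA vehicle, 50.8 to 58.1 in tropifexor vehicle, 50.4 to 54.1 in OCA, 59.8 to 65.0 in low-dose, 20.4 to 22.0 in mid-dose and 24.4 to 26.6 in high-dose liver. Gas6 is the largest term of that sum, at 26.6 of 34.0 in lean liver beside OCA and 13.1 of 22.0 in mid-dose liver beside vehicle. Against lean control the median log2 fold change of the tested portal markers was -0.16 at the mid and 0.13 at the high dose. Of 8 endothelial markers, 3 fell in each vehicle group, 2 under OCA and 2, 3 and 4 at the 3 doses, with 0 higher in any, beside 6.56% and 8.53% of all genes lower in the vehicle groups, 4.04% called under OCA, and 5.2%, 15.7% and 15.5% lower at the doses. Their sum was 146 to 165 in lean, 129 to 138 in OCA vehicle, 140 to 161 in tropifexor vehicle, 118 to 126 in OCA, and 105 to 114, 94.6 to 102 and 101 to 109 at the low, mid and high dose. Of 8 macrophage markers, 6 and 5 rose in the vehicle groups with 1 lower in each, 4 fell under OCA and 1, 6 and 5 fell at the 3 doses. Their sum was 136 to 154 in lean, 276 to 294 and 259 to 296 in OCA vehicle and tropifexor vehicle, 178 to 191 in OCA, and 203 to 221, 123 to 132 and 158 to 172 at the low, mid and high dose.

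Most cholangiocyte markers rose at the low dose, as Col4a5 did, but they did not go together in every comparison. Of the 6 tested in every table, 5 rose and 0 fell at the low dose against vehicle (6.03% of all genes rose), with Epcam going from 2.45 to 7.58 and Krt19 from 2.75 to 6.41 in the authors' deposited table. The last of the 7 listed, Cftr, was tested in that table only and not called. At the mid dose 1 of 6 rose, Krt23 (5.86 to 40.9), and 2 fell, Epcam and Spp1, by the authors' deposited values. Under OCA 3 rose and 0 fell, while Col4a5 was not called. At the high dose 1 of these markers rose and 1 fell, and 3 rose and 1 fell in each vehicle group. Their sum was 314 to 342 in low-dose liver, above the other groups: 38.0 to 43.0 in lean, 134 to 143 in OCA vehicle, 178 to 203 in tropifexor vehicle, 213 to 229 in OCA, 103 to 111 at the mid and 147 to 159 at the high dose. Spp1 is the largest term of that sum, at 165 of 178 in tropifexor vehicle liver beside the mid dose. In mid-dose liver it was 65.7 of 111, with Krt23 most of the rest at 40.9, and in OCA-treated liver beside lean control 184 of 213. Against lean control the median log2 fold change of the tested cholangiocyte markers was -0.15 at the mid dose, although the sum was higher. Of 8 hepatocyte markers, 1 and 7 were called lower in the OCA vehicle and tropifexor vehicle groups. Their median log2 fold changes were nevertheless close, at -0.54 and -0.63. Of the same 8 markers 1 rose under OCA, 2 fell at the low dose, and 4 and 3 rose and 2 and 2 fell at the mid and high dose. Their sum was 70674 to 79914 in lean liver and 40979 to 61449 across the diet-fed groups, so the liver identity of the samples was plain. Alb is the largest term of that sum, at 54432 of 75028 in lean liver beside OCA, and was not called in that comparison (deposited q = 0.647). No marker of these 6 lists was listed at 0 in any table, and the part of cell make-up in the collagen results was not tested.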

How the data were processed

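RNA from flash-frozen mouse liver was extracted with Trizol and made into TruSeq Stranded mRNA libraries, per the labels' protocols. Tools named in the submitters' processing notes are Cufflinks 2.2.1 with its Cuffdiff and Cuffnorm programs, STAR 2.5.1b and bcl2fastq, with GRCm38 as the build; their roles and settings are not stated there. The authors deposited 10 tables of group comparisons, with gene-level FPKM for 2 groups of 4 animals, a fold change (log2), the Cuffdiff test statistic (a score), and p-values with adjusted q-values, per the file headers. Column headers were matched to groups by name, with INT read as OCA, whose code name is INT-747, and the low, mid and high columns read as the 3 tropifexor doses in rising order, since the labels do not pair them. The 2 vehicle groups follow the sample titles, because their treatment labels list a drug.

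Chains were called by the deposited q under 0.05 with the test status OK; these calls matched the authors' own flag for every gene. No model over animals could be fitted to tables with 1 value per group. Differences between 2 fold changes used an SE equal to fold change divided by test statistic, summed variances, a two-sided normal p and Benjamini-Hochberg adjustment over all genes tested in both tables (15158 to 15467 genes). The alternative SE was divided by the median ratio of the normal score of p to the statistic. This step was tested on simulated data. A few fold changes that no FPKM can give were left out. The tables give no depth, so the precision per library is unknown. Promoter windows are from RefSeq, GRCm38.p6, and gene positions from GENCODE on GRCm38. Python 3.11.15, pandas 2.3.3, numpy 2.4.6, scipy 1.17.1 and matplotlib 3.10.9 were used.

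The chains were taken by their symbol, and the chains, classes, gene lists and tests were chosen with earlier results of these data known. Values are given for chains that were called or reached an FPKM of 1, and in the other lists for at most the 3 called genes of largest fold change per list and comparison. The alternatives tried were stricter and looser q thresholds, an FPKM minimum, adjustment recomputed over genes at or above it, no filter on low values, pseudocounts of 0.1 and 1, fold changes centred on the median of all tested genes, and the second SE.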

Additional observations from a re-analysis of the deposited data

Results flagged for a closer look

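The response to tropifexor differed from that to OCA in 5 chains by the test of the difference itself (larger SE, q adjusted over all genes). For the high dose the difference of log2 fold changes, tropifexor minus OCA, was -2.73 in Col1a1, -2.09 in Col1a2 (q = 0.000482), -2.59 in Col3a1, -1.25 in Col6a1 (q = 0.0444, or 0.0594 and no longer called with fold changes centred on the median of all genes) and -1.67 in Col6a2 (q = 0.00176). For the mid dose it was -3.05 in Col1a1, -2.22 in Col1a2 (q = 0.000519), -2.65 in Col3a1, -1.37 in Col6a1 (q = 0.0216) and -1.70 in Col6a2 (q = 0.00187). The mid and high dose share their vehicle group, and all these tests share the OCA table, so the 2 sets are not independent. Each drug had its own vehicle group, and the drugs were given at different doses.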

How the results depend on the processing

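The total number of called chains stayed within 1.5 times its value in 50 alternatives (q thresholds, an FPKM minimum, Benjamini-Hochberg adjustment over genes at an FPKM of 1 or more, and centred fold changes, which can only remove calls whose sign flips). Small counts in 1 direction moved further. At q under 0.01, the chains higher against vehicle went from 2 to 1 at the low and from 1 to 0 at the mid dose, those higher than lean at the high dose from 4 to 2, and those lower than lean under OCA from 2 to 1. At q under 0.1 the chains higher at the mid dose against vehicle went from 1 to 2 and those below lean at the mid dose from 3 to 5. With either use of the FPKM minimum the low-dose chains higher than vehicle went from 2 to 1. The median log2 fold change moved more. With log2(FPKM + 1) it was 0.52 and 0.68 for the diet in the OCA vehicle and tropifexor vehicle groups, -0.96 at the mid dose, and 0.40 for OCA and 0.30 for the low dose against lean control. With log2(FPKM + 0.1) it was 0.76 for the diet in the OCA vehicle group. Over all chains above 0 in both groups it was 0.73 and 0.89 for the diet, -0.94 at the mid and -0.84 at the high dose, and 0.85 for OCA against lean control. Over chains at an FPKM of 1 or more it was 0.82 for OCA against lean control, and it changed sign for OCA against vehicle (-0.027) and for the high dose against lean control (-0.11), both near 0 in size. The other 36 alternatives of the median moved by less than the median SE of the tested chains, among them -0.73 at the low dose against vehicle and -0.10 at the mid dose against lean control over chains at an FPKM of 1 or more, and 0.06 (centred) and 0.07 (all chains above 0) at the high dose against lean control. With the smaller SE, the chains whose effects differed numbered 5 for high against low dose, 6 for mid against low, 14 for the high dose and 14 for the mid dose against OCA, and 5 for the low dose against OCA, where the larger SE gave 0, 0, 5, 5 and 0. Centred fold changes gave 4 for the high dose against OCA, without Col6a1. No paired analysis was possible because the tables hold 1 value per group and their columns carry no replicate number, and for the same reason no replicate could be left out. The tables give no depth, so what it limits could not be measured.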
